A study of Mus musculus with 20 samples.

Results

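The genes described here are 60 genes of the early secretory pathway, the route by which a protein made with a signal peptide enters the endoplasmic reticulum (ER), is glycosylated there and travels to the Golgi and back. They are the 60 members, of 54532 genes in the deposited table, of a list proposed by function after results of the Control against knockout comparison were known. The members were thus in part chosen by measured values of that comparison: *Ostc* and *Tmed3* had already been seen among its smallest p-values. Their levels and fold changes are therefore given as a description of the list, and the counts below are not independent evidence of its direction. All 60 passed the filter on low counts and are among the 15984 genes tested.

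The tissue was the mouse temporomandibular joint (TMJ), which joins the lower jaw to the skull. Condylar heads with a portion of subchondral bone were taken from adult mice of both sexes. Every animal, Controls included, carried Acan-Cre(ERT2) and Loxl2 fl/fl, that is, *Loxl2* flanked by loxP sites and an inducible Cre recombinase driven by the aggrecan promoter, which is active in cartilage cells. The 8 Control animals were given vehicle and the 12 LOXL2_KO animals tamoxifen, so the effect of the drug and that of the deletion cannot be told apart. The question behind the comparison was what the loss of LOXL2, an enzyme that cross-links collagen, does to joint cartilage. No other genotype or untreated group was analysed here.

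A secreted protein is recognised as it leaves the ribosome by the signal recognition particle (SRP), which docks at its receptor on the ER membrane. The chain then passes through the Sec61 channel, assisted by the translocon-associated protein (TRAP) complex. Signal peptidase removes the signal peptide and the oligosaccharyltransferase (OST) adds N-linked sugars. Cargo is gathered by receptors such as the TMED (p24) proteins into vesicles with a COPII coat. COPI-coated vesicles return escaped ER proteins, which KDEL receptors recognise by a short signal at their end. Cartilage and bone cells use this route at a high rate, since collagens and proteoglycans are secreted glycoproteins. Transcription factors of the unfolded protein response, a signalling response to stress in the ER, control many of the route's genes through short promoter elements.

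Those elements were looked for in the members' promoters, and 7 short stretches that carry a match are shown. RefSeq (GRCm38.p6) gave a promoter of 300 bases, 250 before and 50 after the annotated start, for 51 of the 60 members. Of these, 5 had more than a single promoter, and a match in any promoter of a gene was counted, here and for all genes. For 44 of the 51, a stretch after the start was found in a transcript of the gene, which checks the orientation. *Ostc*, *Sec61a1*, *Ssr2*, *Spcs3*, *Sec11c*, *Tmed2*, *Tmed7*, *Arcn1* and *Kdelr2* had no entry. Each stretch of 30 bases is written 5′ to 3′ on the gene's own strand. In the first 5, capitals mark the unfolded protein response element, TGACGTGG or its reverse complement. In the last pair, capitals mark its shorter core, ACGTGG, without the full element. The first 5 are all the members found with the full element. The last pair, called higher below, was picked from 22 members with the core, which include members that were not called. Both genes of the pair have a further match after the start, which is not shown.
Sec24d: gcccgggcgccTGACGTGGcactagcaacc
Kdelr3: tggccgccccgCCACGTCAccgcgcggcca
Copb1: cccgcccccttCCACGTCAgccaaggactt
Copb2: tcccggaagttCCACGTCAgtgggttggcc
Sec23a: ctcctccccttTGACGTGGcagaggcggca
Copz2: ggttctgcaacgACGTGGgggtcgggcaga
Tmed3: atttctccggagACGTGGcagacactaagt
The stretch of *Sec24d* lies at chr3:123267459-123267488 on the plus strand and that of *Kdelr3* at chr15:79516367-79516396 on the plus strand. Those of *Copb1* and *Copb2* lie at chr7:114254690-114254719 on the minus strand and at chr9:98563713-98563742 on the plus strand. The *Sec23a* stretch is at chr12:59011993-59012022 on the minus strand, the *Copz2* stretch at chr11:96849744-96849773 on the plus strand and the *Tmed3* stretch at chr9:89705227-89705256 on the minus strand. The match began 26 bases before the RefSeq start in *Sec24d*, 30 in *Kdelr3*, 28 in *Copb1* and 7 in *Copb2*. In *Sec23a* it began at base 7 after that start. Gene coordinates given further below are from GENCODE M21, whose starts can differ. GENCODE puts the start at chr3:123267455 for *Sec24d*, chr9:98563721 for *Copb2* and chr7:114254711 for *Copb1* (minus strand). By these starts the matches of *Sec24d*, *Copb1* and *Copb2* lie inside the gene.

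Of the 51 members with a promoter, these 5 (9.8%) held TGACGTGG on either strand, against 0.714% of the 27025 genes in the RefSeq table and 1.02% of the 10894 protein-coding genes tested here. The core ACGTGG, which is contained in TGACGTGG, occurred in 22 members (43.1%), against 9.4% of all genes and 12.9% of the tested protein-coding genes. CCACG, whose reverse complement is contained in ACGTGG, occurred in 34 members (66.7%), against 35.5% and 50.9%. The full ER stress element, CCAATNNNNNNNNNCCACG with N for any base, occurred in 0 of the 51 members and in 37 of all genes. In all, 8 strings were searched, 4 of them added after the first counts were seen. The added ones were CCAAT in 26 members (51.0%, against 42.4% of the tested protein-coding genes), ACGTG in 31 (60.8%, against 28.5%), TGACGT in 15 (29.4%, against 12.5%) and the ER stress element of the second type, ATTGG and CCACG with any base between them, in 1. These counts describe letters in a window and carry no test.

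Library totals ran from 11153820 to 27045668 counts, and the lowest count of any member in any library was 15. Chondrocyte genes were present, with *Col2a1*, the main cartilage collagen, at a median of 657.6 CPM (counts scaled by library size) in Control and 1242 in LOXL2_KO. Their summed level was far lower in Control 6 (239.8 CPM) and Control 8 (70.51 CPM) than in the other Control libraries. *Matn1* was at 0 in every Control library, and *Cnmd* did not reach 1 CPM in any library. Skeletal muscle genes were present in every library, with 9 listed genes summing to 24210 CPM in LOXL2_KO 2 and up to 151400 CPM in Control 8. The samples thus held muscle beside cartilage and bone. The targeted gene went against its label: *Loxl2* had a median of 70.35 CPM in Control (range 16 to 103.5) and 109.7 CPM in LOXL2_KO (28.82 to 126.2), 0.64 higher on the log2 scale (SE 0.28) at an edgeR adjusted p of 0.101. It passed the threshold, as higher, in the fit without LOXL2_KO 12 (0.74, edgeR adjusted p = 0.0313). The LOXL2_KO libraries are therefore called the libraries labelled knockout. By immunohistochemistry, the paper reports less LOXL2 protein in its knockout mice. The values here are RNA of whole condylar heads, in which the Cre is active in cartilage cells, so they are an unlike measure. Why the RNA was not lower was not tested. In bulk tissue, fewer cells of a type and less RNA per cell cannot be told apart.

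Of the 60 members, 32 rose and 3 fell in the libraries labelled knockout at an edgeR adjusted p under 0.05 over all genes tested, and 25 did not pass. Over all 15984 genes, 12% were called higher and 11% lower. Fold changes were positive for 49 members, and their median log2 fold change was 0.22, against -0.018 over all genes tested. Most differences were small: 4 members (*Kdelr3*, *Sec24d*, *Kdelr2* and *Sec61a1*) differed at least 2-fold. Of the 32 that rose, 29 did so in each of the 20 fits that left out 1 library.

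**Figure D1:**
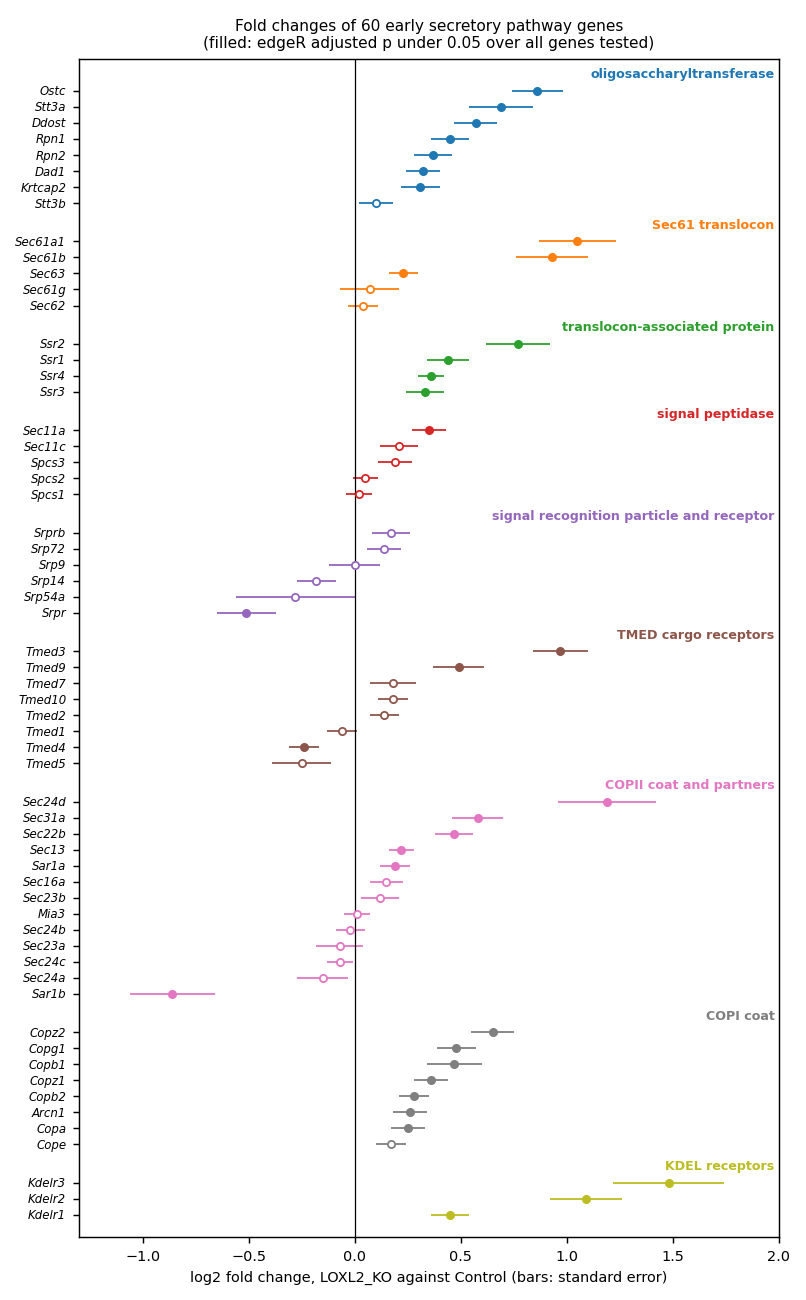
Log2 fold change of each of the 60 members, LOXL2_KO (n = 12) against Control (n = 8), grouped by machinery on the vertical axis. Bars give the standard error derived from the F statistic of the edgeR test, and filled points mark genes past the threshold. The KDEL receptors lie at 0.45 to 1.48, COPI and OST genes lie right of 0, and the SRP genes spread around 0.

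The SRP and its receptor form the targeting step, and 0 of its 6 members rose. *Srpr*, the receptor subunit that binds the particle, fell. Its level had a lowest, median and highest value of 161.9, 204.0 and 355.4 CPM in Control and 110.8, 157.5 and 195.4 CPM in the libraries labelled knockout, a difference of -0.51 on the log2 scale (SE 0.14) at an adjusted p of 0.0124 in edgeR. In 7 of the 12 libraries it was below every Control library, and the highest values were those of Control 8 and Control 4. With the level of skeletal muscle genes as a covariate the value was -0.26 and did not pass (edgeR adjusted p = 0.148). The other 5 did not pass: *Srp9* (0.00), *Srp14* (-0.18), *Srp54a* (-0.28), *Srp72* (0.14) and *Srprb* (0.17). *Srp9* and *Srp14* encode the pair that pauses the ribosome. The low value of *Srp54a*, a median of 2.381 CPM in Control, is uncertain, since the gene has near-identical copies among which the counting could have split its reads.

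At the Sec61 channel, 2 of the 3 core subunits rose, and the third did not pass. *Sec61a1* encodes the subunit that forms the pore (ENSMUSG00000030082, chr6:88503579-88518905, minus strand). Its level was 21.21, 48.31 and 62.32 CPM in Control and 56.15, 96.58 and 120.4 CPM in the libraries labelled knockout (lowest, median, highest), a difference of 1.05 on the log2 scale (SE 0.18) at an adjusted p of 0.00119 in edgeR. In 10 of the 12 libraries it was above every Control library, and the exceptions were LOXL2_KO 5 (56.15 CPM) and LOXL2_KO 12 (61.54 CPM). *Sec61b*, a small subunit of the channel, went from a median of 12.81 CPM (8.705 to 18.25) to 27.6 CPM (13.05 to 32.01) and rose by 0.93 (SE 0.17). *Sec61g*, the other small subunit, had medians of 25.14 and 26.56 CPM and a log2 fold change of 0.07 (SE 0.14). *Sec62* (0.04, SE 0.07) did not pass, and *Sec63* (0.23, SE 0.07, edgeR adjusted p = 0.0323), its partner in post-translational import, passed but was lost in 5 of the 20 fits without 1 library.

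All 4 TRAP subunits rose, by 0.77 for *Ssr2*, 0.44 for *Ssr1*, 0.36 for *Ssr4* and 0.33 for *Ssr3* on the log2 scale. *Ssr4* varied little within the groups: 49.39, 50.81 and 54.2 CPM in Control and 55.54, 65.48 and 77.75 CPM in the libraries labelled knockout (SE 0.06, edgeR adjusted p = 0.00116). Its groups did not overlap. Every library labelled knockout was above every Control library for 3 of the 60 members, *Ostc*, *Ssr4* and *Tmed3*, and for 0.213% of all genes tested. Of signal peptidase, *Sec11a*, a catalytic subunit, rose by 0.35 (SE 0.08), and the second catalytic subunit *Sec11c* had 0.21 (SE 0.09) without passing. The accessory subunits *Spcs1* (0.02), *Spcs2* (0.05) and *Spcs3* (0.19) did not pass.

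Of the 8 OST subunits, 7 rose. *Ostc* encodes a subunit that ties the complex to the Sec61 channel (ENSMUSG00000041084, chr3:130695912-130709444, minus strand). Its level was 21.28, 35.6 and 42.77 CPM in Control and 46.14, 62.45 and 76.82 CPM in the libraries labelled knockout, a difference of 0.86 on the log2 scale (SE 0.12) at an adjusted p of 0.000984 in edgeR. The groups did not overlap, and the lowest value was that of Control 8. Of the 2 catalytic subunits 1 passed, and the difference between them was not tested. *Stt3a*, whose complex acts on chains as they enter through the channel, went from a median of 51.94 CPM (29.02 to 57.55) to 77.38 CPM (49.51 to 94.69) and rose by 0.69 (SE 0.15), while *Stt3b*, whose complex can act after entry, had medians of 85.19 and 93.53 CPM and a fold change of 0.10 (SE 0.08, edgeR adjusted p = 0.388). The shared subunits *Ddost* (0.57), *Rpn1* (0.45), *Rpn2* (0.37), *Dad1* (0.32) and the *Stt3a*-complex subunit *Krtcap2* (0.31) also rose.

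**Figure D2:**
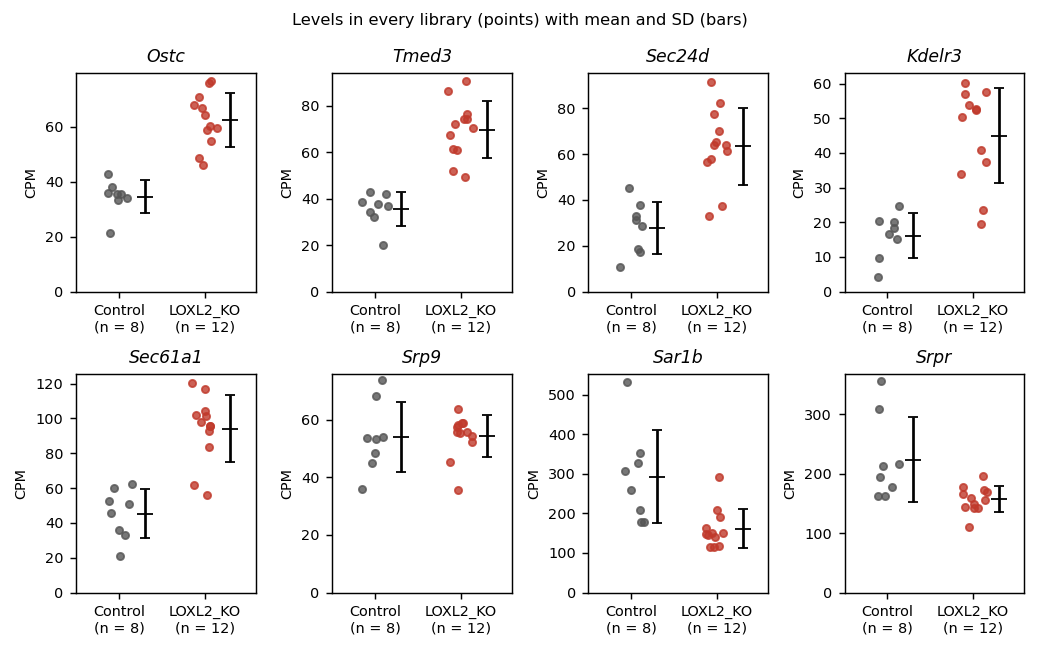
CPM (vertical axes, from 0) of 8 genes in every Control library (n = 8) and every LOXL2_KO library (n = 12), points, with mean and SD beside them. *Ostc* and *Tmed3* do not overlap between groups, 2 low LOXL2_KO libraries lie within the Control range for *Sec24d* and *Sec61a1*, *Srp9* overlaps between the groups, and *Sar1b* and *Srpr* lie lower in LOXL2_KO.

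The TMED proteins, which span the vesicle membrane and bind cargo, did not move together: 2 of 8 rose, 1 fell and 5 did not pass. *Tmed3* (ENSMUSG00000032353, chr9:89699206-89705068, minus strand) had 19.98, 37.17 and 42.94 CPM in Control and 49.46, 71.34 and 90.54 CPM in the libraries labelled knockout, a difference of 0.97 on the log2 scale (SE 0.13) at an adjusted p of 0.000984 in edgeR. Every library labelled knockout was above every Control library, and Control 8 was the lowest of all. *Tmed9* rose by 0.49 (SE 0.12), from a median of 66.13 to 97.64 CPM. *Tmed4*, which belongs to the same subfamily as *Tmed9*, fell by 0.24 (SE 0.07, edgeR adjusted p = 0.0208), from a median of 70.3 CPM (64.15 to 79.78) to 59.89 CPM (47.78 to 71.4). Its call was lost without Control 6 and without Control 8 (-0.21 each), with library totals alone (-0.10, edgeR adjusted p = 0.297), with no filter (-0.23, edgeR adjusted p = 0.0715) and with a replicate block (-0.26, edgeR adjusted p = 0.0965). *Tmed1* (-0.06), *Tmed2* (0.14), *Tmed5* (-0.25), *Tmed7* (0.18) and *Tmed10* (0.18) did not pass. *Tmed2* had the highest level of the 8 per kilobase of exon, a Control median of 58.4 CPM per kilobase.

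The COPII coat gave both the second largest rise and the largest fall of the list. *Sec24d* encodes a cargo-binding subunit that is known for its part in procollagen export (ENSMUSG00000039234, chr3:123267455-123365641, plus strand). Its level was 10.8, 29.92 and 45.16 CPM in Control and 32.87, 63.95 and 91.24 CPM in the libraries labelled knockout, a difference of 1.19 on the log2 scale (SE 0.23) at an adjusted p of 0.00196 in edgeR. In 10 of the 12 libraries it was above every Control library. Its paralogues *Sec24a* (-0.15), *Sec24b* (-0.02) and *Sec24c* (-0.07) had small negative values that did not pass, and all 3 turned positive when libraries were scaled by their totals alone (0.01, 0.13 and 0.08). *Sec31a*, of the outer coat, rose by 0.58, *Sec22b*, a SNARE carried by these vesicles, by 0.47, and *Sec13*, of the outer coat, by 0.22.

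*Sar1b* encodes a small GTPase that starts COPII assembly and is also known for the export of large lipoproteins (ENSMUSG00000020386, chr11:51763687-51791925, plus strand). Its level was 179.4, 284.0 and 531.1 CPM in Control and 114.3, 149.7 and 291.0 CPM in the libraries labelled knockout, a difference of -0.86 on the log2 scale (SE 0.20) at an adjusted p of 0.00547 in edgeR. In 9 of the 12 libraries it was below every Control library, while LOXL2_KO 5 (291.0 CPM) lay above the Control median. With the level of skeletal muscle genes as a covariate *Sar1b* was at -0.44 (edgeR adjusted p = 0.0336). *Sar1a*, its paralogue, passed as higher by 0.19 (SE 0.07, edgeR adjusted p = 0.0426), from a median of 198.4 to 223.5 CPM, and was lost in 13 of the 20 fits without 1 library. The inner-coat genes *Sec23a* (-0.07, 0.11 with library totals alone) and *Sec23b* (0.12), the scaffold *Sec16a* (0.15) and *Mia3* (0.01), which encodes the collagen export receptor TANGO1, did not pass.

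Of the 8 COPI coat genes, 7 rose, by 0.25 to 0.65. The largest change was that of *Copz2*, a paralogue of *Copz1*, which encodes the same subunit of the coat. It went from a median of 42.41 CPM (36.44 to 52.1) to 72.06 CPM (45.18 to 87.46), a difference of 0.65 on the log2 scale (SE 0.10) at an adjusted p of 0.00111 in edgeR. *Copz1* rose by 0.36, *Copg1* by 0.48, *Copb1* by 0.47, *Copb2* by 0.28, *Arcn1* by 0.26 and *Copa* by 0.25. The smallest value was that of *Cope* (0.17, SE 0.07, edgeR adjusted p = 0.0631), and *Arcn1* was lost without Control 7 (0.23).

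The 3 KDEL receptor genes all rose and had the highest median of any machinery, 1.09. *Kdelr3* (ENSMUSG00000010830, chr15:79516411-79527739, plus strand) had 4.287, 17.46 and 24.72 CPM in Control and 19.47, 51.35 and 60.22 CPM in the libraries labelled knockout, a difference of 1.48 on the log2 scale (SE 0.26) at an adjusted p of 0.0014 in edgeR. *Kdelr2* went from a median of 45.4 CPM (26.41 to 63.0) to 99.7 CPM (54.24 to 126.7) and rose by 1.09 (SE 0.17, edgeR adjusted p = 0.00104). *Kdelr1* went from 61.39 CPM (46.77 to 73.27) to 84.16 CPM (63.07 to 95.47) and rose by 0.45 (SE 0.09). For each of the 3, 10 of the 12 libraries labelled knockout were above every Control library, and LOXL2_KO 5 and LOXL2_KO 12 were the exceptions in each. *Hspa5*, an ER chaperone that bears the KDEL signal and was looked up after these values were seen, had medians of 238.0 and 238.8 CPM and a fold change of 0.07 (SE 0.10, edgeR adjusted p = 0.615).

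Because several machineries have paralogues, each gene's share of its family was computed in every library from CPM per kilobase of exon. The Control and knockout figures that follow are medians of these shares. *Sec24d* took 16.2% of the Sec24 family in Control (5.79 to 23.2%) and 30.1% in the libraries labelled knockout (18.4 to 38.0%), while *Sec24c*, the most abundant per kilobase, went from 55.0% to 44.2%. *Sar1a* went from 18.4% (11.9 to 25.5%) to 33.3% (19.4 to 41.3%). *Kdelr3* went from 17.9% (5.75 to 21.8%) to 25.2% (17.9 to 27.9%) and *Kdelr1* from 45.2% to 33.8%. *Stt3a* had 21.6% (11.55 to 27.71%) and 29.8% (18.04 to 34.25%), and *Copz2* 59.0% (54.24 to 63.19%) and 63.9% (58.16 to 66.65%). *Tmed3* went from 7.27% (3.71 to 8.22%) of the TMED members to 12.1% (8.59 to 14.6%), and in all 12 libraries labelled knockout its share was above that of every Control library. *Sec23a* (78.9% and 79.0%) and *Sec11a* (62.8% and 65.2%) differed little in their medians. Of the shares named here, only that of *Tmed3* did not overlap between the groups.

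**Figure D3:**
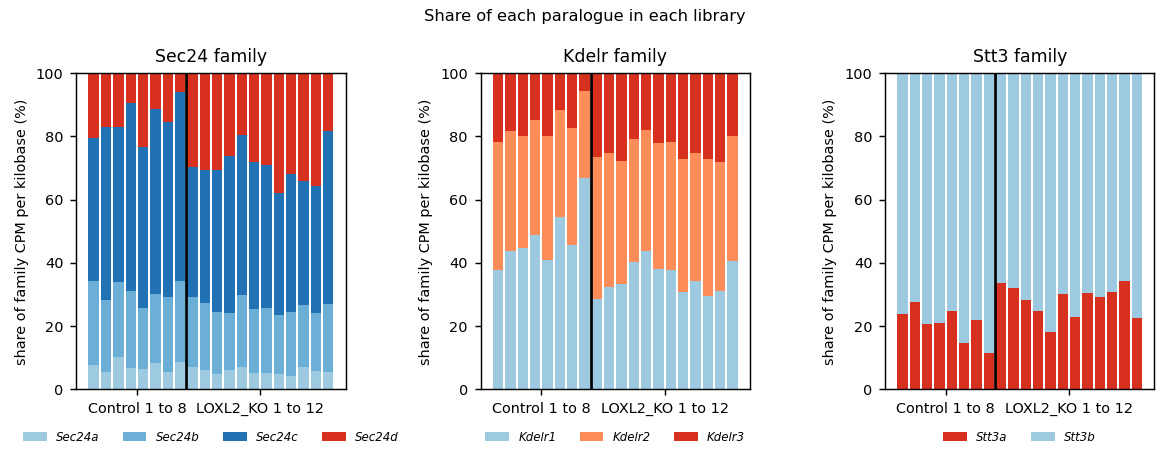
Share (%) of each paralogue in the summed CPM per kilobase of its family, 1 stacked bar per library, Control 1 to 8 left and LOXL2_KO 1 to 12 right of the black line. The red parts of *Sec24d*, *Kdelr3* and *Stt3a* are thinnest in Control 8 (5.79% for *Sec24d*) and have higher medians in LOXL2_KO.

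Libraries differed in how many members lay above their own median over the 20 libraries. The number was 7 to 22 of 60 in Control (median 13) and 19 to 51 in the libraries labelled knockout (median 43), with 10 of 12 above the highest Control library. LOXL2_KO 5 (22 members) and LOXL2_KO 12 (19 members) lay in the Control range. All 3 KDEL receptor genes were above their median in the other 10 libraries labelled knockout and in 0 Control libraries. SRP genes showed no such pattern, with 1 to 5 of 6 above their median in both groups.

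**Figure D4:**
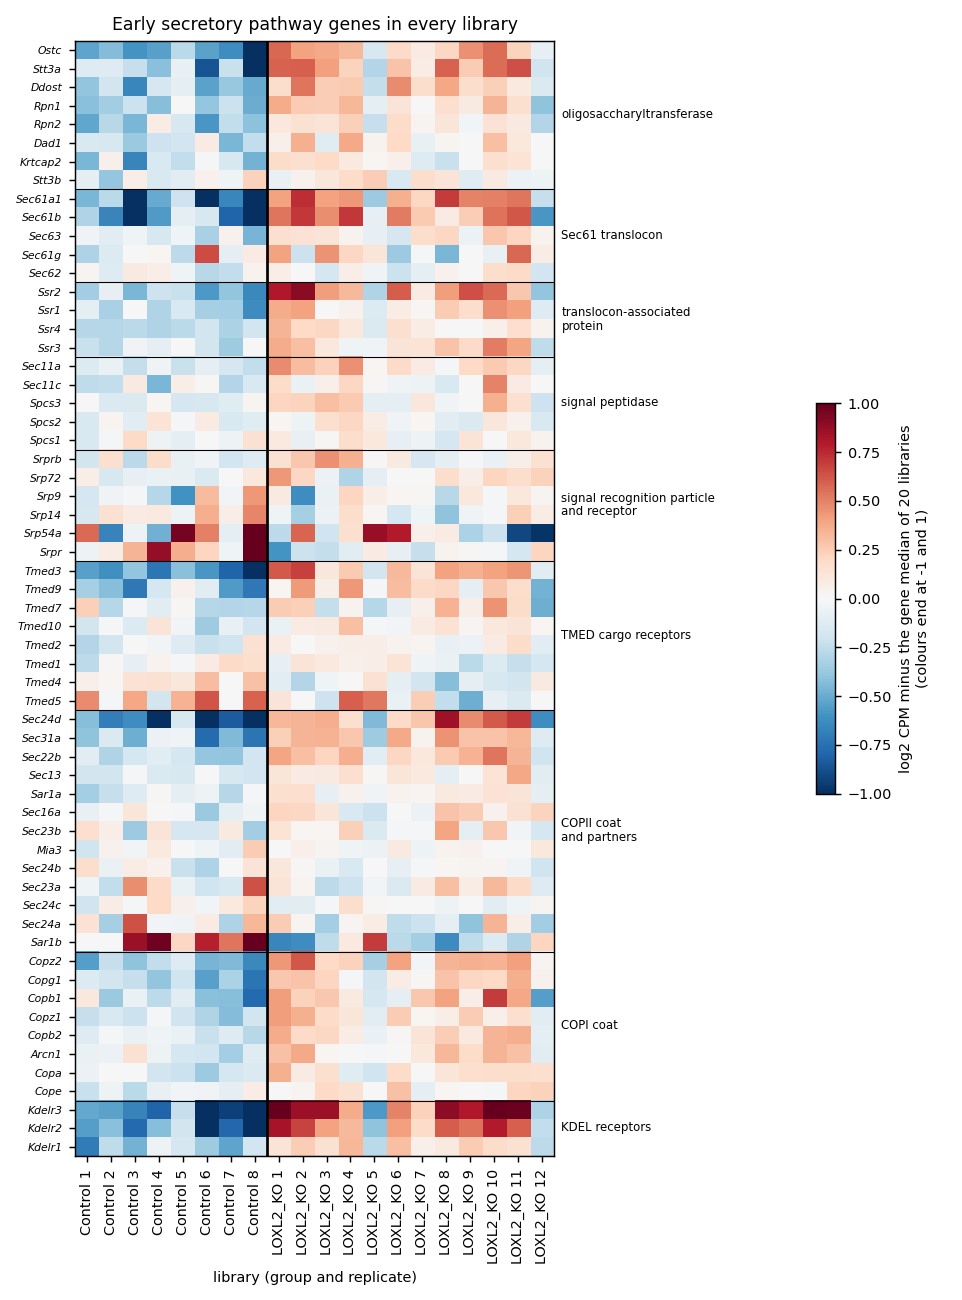
Log2 CPM of the 60 members (rows, by machinery) minus each gene's median over the 20 libraries (columns), red above and blue below it. Most OST, TRAP, COPI and KDEL receptor rows are red in LOXL2_KO, LOXL2_KO 5 and LOXL2_KO 12 are paler or blue (22 and 19 of 60 members above their median), and *Sar1b* and *Srpr* have the opposite pattern.

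Markers of several cell types also differed between the groups, in step with the members in some libraries and not in others. All 10 osteoclast genes rose, and their summed level was 183.3, 436.8 and 1485 CPM in Control and 664.5, 2526 and 8093 CPM in the libraries labelled knockout (lowest, median, highest). None of the 10 was at 0 in every library, and LOXL2_KO 5 had the lowest sum of its group. LOXL2_KO 11 (992.7 CPM) and LOXL2_KO 12 (1218 CPM) also lay within the Control range. They had 49 and 19 of the 60 members above their median. Of 10 osteoblast and osteocyte genes, 5 rose (sum 201.8 to 2062 CPM in Control, 356.8 to 4267 CPM in the libraries labelled knockout), as did 5 of 6 macrophage genes (36.83 to 179.5 and 119.1 to 469.2 CPM), 2 of 8 fibroblast genes (546.1 to 2322 and 1629 to 3176 CPM), 3 of 8 plasma cell genes (15.47 to 67.5 and 43.44 to 162.8 CPM), 4 of 7 mast cell genes (1.914 to 19.75 and 5.325 to 186.8 CPM) and 2 of 10 chondrocyte genes (70.51 to 3231 and 511.5 to 5672 CPM). Of 7 neutrophil genes 1 rose (5.293 to 151.4 and 14.01 to 839.5 CPM). Of 8 salivary gland genes 1 rose, *Bpifa2*, and their sum was 3266 CPM in LOXL2_KO 9 against 28.68 to 103.4 CPM in the other 19 libraries. Of 6 erythroid genes 1 fell (11.57 to 151.9 and 3.706 to 46.0 CPM), and 0 of 5 endothelial, 0 of 5 adipocyte and 0 of 5 Schwann cell genes passed. Of 9 skeletal muscle genes, 5 fell (33410 to 151400 CPM in Control, 24210 to 62760 CPM in the libraries labelled knockout). These counts are of genes listed, some of which failed the filter on low counts. Tested were 2 of the 8 salivary gland, 7 of the 10 chondrocyte and 5 of the 7 mast cell genes. Likewise 7 of the 8 plasma cell, 5 of the 6 erythroid and 4 of the 5 adipocyte genes were tested. Control 8, with the highest muscle sum, had the highest *Sar1b* and *Srpr* and the lowest *Ostc*, *Tmed3*, *Kdelr3* and *Sec24d*. Within the libraries labelled knockout, the highest muscle sums were those of LOXL2_KO 12 (62760 CPM) and LOXL2_KO 5 (61650 CPM). LOXL2_KO 3 came next (51850 CPM), with 44 members above their median. The share of counts from mitochondrial genes was 15.18 to 23.1% in Control and 9.06 to 18.29% in the libraries labelled knockout. Of the latter, 8 were below every Control library. LOXL2_KO 5 (16.21%), LOXL2_KO 10 (16.35%), LOXL2_KO 11 (17.44%) and LOXL2_KO 12 (18.29%) were within the Control range. Members above their median numbered 46 in LOXL2_KO 10 and 49 in LOXL2_KO 11, but 22 in LOXL2_KO 5 and 19 in LOXL2_KO 12. *Tnfrsf17*, a defining plasma cell gene, stayed at or below 0.3754 CPM in every library. *Col1a1*, the main bone collagen and a cargo of the pathway, was looked up after these values were seen and rose by 2.50 (SE 0.45, edgeR adjusted p = 0.00144), from a median of 2267 to 18410 CPM. Among the libraries labelled knockout, it was lowest in LOXL2_KO 5 (3711 CPM) and LOXL2_KO 12 (8869 CPM). LOXL2_KO 4 came next (9697 CPM), with 51 members above their median. With the osteoclast level as a covariate, 0 of the 60 members passed (16 at an unadjusted p under 0.05), as did 0 of all 15984 genes, and the members' median was 0.19. *Ostc* then had 0.46 (edgeR adjusted p = 0.579), *Sar1b* -0.06 and *Srpr* -0.15. With the osteoblast and osteocyte level 18 members stayed higher and 0 lower, and with the skeletal muscle level 22 and 1 (*Sar1b*). Without LOXL2_KO 9, 31 members were higher and 3 lower. What part these cell types and the mitochondrial share had in the members' values was not tested beyond these fits.

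A further 108 genes of the same pathway were listed by function, and 106 could be tested. Of these, 28 rose and 8 fell, and their median was 0.11. Over all genes tested, 12% were called higher and 11% lower. The counts by group that follow were not tested against these shares. The glycan-trimming and calnexin group had 7 of 12 higher and 0 lower, the dolichol-linked glycan synthesis group 5 of 23 and 0, and the ER membrane complex and GET group 1 of 15 higher and 3 lower. The 3 higher genes with the smallest p were *Surf4*, a cargo receptor (0.56, SE 0.08, median 146.4 to 223.8 CPM), *Arf4*, a GTPase of the COPI step (0.91, SE 0.14, 63.13 to 124.2 CPM), and *Tram2*, a translocon partner known for collagen synthesis (1.05, SE 0.17, 15.25 to 30.92 CPM). Their edgeR adjusted p were 0.00104, 0.00104 and 0.00111, and *Tram2* was the only gene among the 106 whose groups did not overlap. The 3 lower genes with the smallest p were *Lman2l*, a lectin of cargo export (-0.43, SE 0.08, 36.53 to 26.39 CPM), *Arfgap2*, a regulator of the COPI coat (-0.41, SE 0.10, 53.58 to 41.38 CPM), and *Sec31b* (-0.63, SE 0.16, 61.9 to 38.26 CPM), the paralogue of *Sec31a*. *Tmed6* and *Tmed11* did not pass the filter.

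The promoter matches were set beside these calls. Of the 27 members that rose and have a promoter, 16 (59.3%) held ACGTGG, against 6 (25.0%) of the 24 that did not rise. TGACGTGG was in 4 of the 27 (*Sec24d*, *Kdelr3*, *Copb1* and *Copb2*) and in 1 of the 24 (*Sec23a*). CCACG was in 21 of 27 (77.8%) and 13 of 24 (54.2%). ACGTG, the core less 1 base, was in 17 of 27 (63.0%) and 14 of 24 (58.3%). TGACGT and CCAAT had the opposite order, with 6 of 27 (22.2%) and 9 of 24 (37.5%) for the former and 12 of 27 (44.4%) and 14 of 24 (58.3%) for the latter. The calls come from the values that in part chose the list, so these shares are a description.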

How the data were processed

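RNA of 20 condylar samples was sequenced in paired-end mode. The authors trimmed the reads, mapped them to mm10 and deposited raw counts per gene from featureCounts; aligner, annotation release and strand setting are not given in the sources used here, so reads shared by overlapping genes or near-identical copies are uncertain. Groups and replicate numbers came from the sample titles. Of 54532 genes, 54495 matched GENCODE M21 (GRCm38), which gave symbols and coordinates; 37 did not. No library was a copy of another (smallest chi-square per degree of freedom between libraries 32.9). With 11153820 to 27045668 counts per library, the libraries differ in depth; p-values measure the spread between these animals.

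Counts were filtered by filterByExpr, scaled by TMM and tested over all genes with edgeR 4.0.16 (quasi-likelihood F-test, two-sided, Benjamini-Hochberg, threshold 0.05) in R 4.3.3. The study's own test, DESeq2 (1.42.0), was an alternative, beside other scalings, filters, each library left out, a replicate block and marker lists as covariates (mean log2 CPM). The code was tested on simulated data. The SE of a log2 fold change was derived as its absolute value divided by the square root of the F statistic of the edgeR test. CPM use TMM-scaled sizes. Shares used CPM per kilobase of exon.

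The members and lists were chosen with earlier results of these data known. Named were *Ostc*, *Tmed3*, the extremes of each machinery, all members of the paralogue families, all members with negative values, and 3 higher and 3 lower other pathway genes by p; further members were added to account for the whole list. Protein sequences were not analysed here.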

Additional observations from a re-analysis of the deposited data

Results flagged for a closer look

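In 4 of the 60 members, 1 Control library stood apart from the other 7 by more than Dixon's 95% critical value of 0.526, on the log2 CPM scale. Chance alone flags about 1 in 20 groups. Control 8 was lowest for *Ostc* (21.28 CPM, others 33.53 to 42.77; gap over range 0.651) and for *Tmed3* (19.98 CPM, others 32.24 to 42.94; 0.625). Control 6 was highest for *Sec61g* (40.72 CPM, others 20.91 to 27.41; 0.594) and lowest for *Sec16a* (51.92 CPM, others 62.73 to 72.79; 0.559). These are also the Control libraries with the lowest summed chondrocyte level. The 12 libraries labelled knockout were not tested in this way.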

How the results depend on the processing

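Members called higher and lower were 31 to 38 and 2 to 3 under the other scalings, 32 and 3 with DESeq2, 28 and 2 with no filter, and 30 to 33 and 2 to 3 with each library left out. Scaling by library totals alone moved the median of all genes to 0.12, that of the members to 0.36 and the other pathway genes called lower to 4. Replicate numbers did not pair the libraries (r from -0.36 to 0.168 over 8 pairs, 2 above 0.1, 0 of 8 Control libraries closest to their own number). With a replicate block on 16 libraries, 23 members were higher and 2 lower (28 and 3 without the block), and of the other pathway genes 21 were called, 17 higher and 4 lower. Marker levels as covariates lowered the members called from 35 to 0 (osteoclast), 18 (osteoblast and osteocyte), 23 (skeletal muscle) and 19 (fibroblast, chosen after seeing the data); higher were 0, 18, 22 and 19, and lower 0, 0, 1 and 0. Of the other pathway genes, 0, 11, 15 and 13 were then called, 0, 10, 14 and 12 higher and 0, 1, 1 and 1 lower. With each library left out, 29 to 42 of them were called, 24 to 32 higher and 5 to 10 lower, the 5 without Control 8. *Loxl2* ranged from 0.50 to 0.78.

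Signs turned for 10 members, none of which passed in the fit reported above, with values there from -0.28 (*Srp54a*) to 0.18 (*Tmed7*). *Srp9* was -0.01 with DESeq2 size factors, upper-quartile factors, DESeq2 and protein-coding genes alone, -0.02 with the block, -0.03 without it, and -0.06 to 0.09 with a library left out; *Sec23a* then ran from -0.10 to 0.04 and *Sec24b* from -0.05 to 0.02, and *Mia3* from -0.02 to 0.06. *Mia3* was -0.0028, -0.01, -0.00014 and -0.0045 under the first 4 of these settings. Library totals alone gave *Tmed1* 0.10, *Sec23a* 0.11, *Sec24a* 0.01, *Sec24b* 0.13 and *Sec24c* 0.08. The block gave *Srp54a* 0.02 and *Tmed1* 0.02, the latter also without it. The osteoclast level gave *Srp14* 0.10, *Tmed7* -0.06, *Sec23a* 0.06 and *Sec24c* 0.03; the muscle level gave *Sec23a* 0.01 and *Sec24c* 0.01, and the fibroblast level *Sec23a* 0.03. The cause was not tested. Depth did not limit the members, whose lowest count was 15, except *Srp54a*.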
